A study of Mus musculus with 11 samples.

Results

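The subunits of respiratory chain complexes I to IV that are encoded in the nucleus were followed in the mouse tibialis anterior, a leg muscle made mostly of fast fibres, on 11 arrays. Members were all genes whose symbol on the array is Nduf followed by a, b, c, s or v and a number, Sdha to Sdhd, a symbol that starts with Uqcr, or one that starts with Cox4 to Cox8. Each was represented by its probe set of highest mean signal over the 11 arrays. The rule found 64 of the 18193 genes that have a probe set naming no other gene: 33 of complex I, 4 of complex II, 8 of complex III and 16 of complex IV, together with Ndufa4 and Ndufa4l2, which are now assigned to complex IV, and Cox7a2l, a factor that joins complexes III and IV into supercomplexes. Of the 64, 61 passed the filter on low values, and all but Cox4i2 among them lay above the median signal of all probe sets on every array. Ndufb4, Cox6b2 and Cox7b2 did not pass it and were not tested. For Ndufb4 this concerns a dim probe set, at 50.1 to 391.9. Much brighter probe sets of Ndufb4, with mean signals of 64598.7 and 53341.5, were left out because they also name Ndufb4b and Ndufb4c. Ndufs6, Ndufa11, Cox7b and the subunits encoded in mitochondrial DNA were not analysed here.

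The arrays form 4 groups. Denervated control (3 arrays) and innervated control (3 arrays) muscle came from runx1f/- mice, which carry a floxed and a null allele of the transcription factor gene Runx1. Denervated mutant (3 arrays) and innervated mutant (2 arrays) muscle came from runx1f/- mice that also carry MCK::cre, a transgene that places Cre recombinase under the promoter of muscle creatine kinase and so makes it in fibres. Denervation had lasted 3 days by the sample titles, although another label of denervated control 3 states 5 days. All 4 groups share the runx1f/- genotype and none carries intact Runx1 alleles on both chromosomes. Only the mutant carries MCK::cre, so an effect of Cre itself cannot be told apart from that of deleting Runx1. The labels do not say whether arrays of a group came from separate animals, so p-values measure the spread between these arrays, which may be technical.

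The respiratory chain passes electrons from NADH and succinate to oxygen and uses the energy to pump protons across the inner mitochondrial membrane. Complex I oxidises NADH, complex II oxidises succinate and is also an enzyme of the citrate cycle, complex III passes electrons from ubiquinol to cytochrome c, and complex IV, cytochrome c oxidase, reduces oxygen to water. Muscle fibres depend on this chain for sustained work, and several complex IV subunits exist as a form made in heart and skeletal muscle and a form made in most other tissues.

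The promoters of 4 members that the results below turn on are shown as RefSeq gives them on build GRCm38.p6, from 250 bases before the annotated start of the gene to 50 bases after it, 5′ to 3′ on the strand of the gene. Cox8b (minus strand, chr7:140900397-140900696) and Cox8a (minus strand, chr19:7217567-7217866) encode the muscle and the general form of the same complex IV subunit. Sdhd (minus strand, chr9:50603800-50604099) and Ndufb10 (minus strand, chr17:24724374-24724673) were the members of complexes II and I with the largest falls. Capitals mark the letters of 5 motifs that were searched on both strands: the NRF1 palindrome, ERR as AAGGTCA, GABPA as CCGGAAG, YY1 as AGATGGC and the E-box CAGCTG. The marked matches do not overlap each other.
Cox8b: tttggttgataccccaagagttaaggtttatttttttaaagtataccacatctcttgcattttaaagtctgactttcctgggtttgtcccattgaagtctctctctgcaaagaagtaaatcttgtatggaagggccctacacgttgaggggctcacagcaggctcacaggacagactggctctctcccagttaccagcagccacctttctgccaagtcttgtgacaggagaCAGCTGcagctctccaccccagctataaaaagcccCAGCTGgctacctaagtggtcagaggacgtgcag
Cox8a: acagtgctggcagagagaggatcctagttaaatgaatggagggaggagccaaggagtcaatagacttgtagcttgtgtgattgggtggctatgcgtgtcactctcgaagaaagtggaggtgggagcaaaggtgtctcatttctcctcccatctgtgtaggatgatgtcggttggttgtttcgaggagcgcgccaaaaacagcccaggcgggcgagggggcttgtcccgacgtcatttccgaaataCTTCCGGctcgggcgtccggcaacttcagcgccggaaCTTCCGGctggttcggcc
Sdhd: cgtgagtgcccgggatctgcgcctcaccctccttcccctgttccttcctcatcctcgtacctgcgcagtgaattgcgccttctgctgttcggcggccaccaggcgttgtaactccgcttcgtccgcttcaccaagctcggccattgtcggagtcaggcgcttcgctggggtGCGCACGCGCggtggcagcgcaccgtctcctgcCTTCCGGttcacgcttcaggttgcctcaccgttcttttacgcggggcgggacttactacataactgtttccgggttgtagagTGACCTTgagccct
Ndufb10: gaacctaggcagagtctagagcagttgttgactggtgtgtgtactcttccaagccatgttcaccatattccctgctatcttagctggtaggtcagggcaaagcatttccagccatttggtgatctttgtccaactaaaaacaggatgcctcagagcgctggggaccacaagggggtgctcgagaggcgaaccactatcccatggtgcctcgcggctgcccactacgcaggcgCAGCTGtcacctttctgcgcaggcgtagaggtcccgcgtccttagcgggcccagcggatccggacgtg
The Cox8b promoter holds the E-box 2 times and the Cox8a promoter holds the GABPA letters 2 times. The Sdhd promoter holds the NRF1, ERR and GABPA letters, each 1 time, and the Ndufb10 promoter holds 1 E-box. Of the 64 members, 51 have a promoter in the RefSeq table. The NRF1 letters were found in 9 of these 51 (17.6%), against 5.19% of 27025 promoters of all genes, and the GABPA letters in 11 (21.6%), against 9.93%. The YY1 letters were found in 7 (13.7% against 7.31%), the ERR letters in 4 (7.84% against 5.38%) and the E-box in 5 (9.8% against 18.3%). A match describes these letters and is not a site that was tested. NRF1, GABPA and YY1 are known activators of respiratory chain genes, and ERR stands for the oestrogen-related receptors, which act with the PGC-1 coactivators.

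Signals are brightness values on a linear scale, which the deposited files hold at the same 2% trimmed mean of 2500 on each array, and the number of arrays limits their precision. The brightest Runx1 probe set read 20403 to 23185 on the denervated mutant and 23499 to 25898 on the denervated control arrays, and 288.2 to 395.0 on the innervated mutant and 178.9 to 519.1 on the innervated control arrays. Of the other 5 Runx1 probe sets, 2 dimmer ones read lower on every denervated mutant array than on any denervated control array, at 1209 to 2217 against 2619 to 3858 and at 1145 to 1493 against 1574 to 3049. The labels do not say which probes lie inside the floxed segment, so these values do not check the deletion. The hybridisation spike-in RNAs read lower on the denervated arrays (13.15 to 13.74 on the log2 scale) than on the innervated arrays (13.83 to 14.30), which enters the results only where arrays are scaled to them. The poly-A spike-in RNAs, a separate set of controls, read 11.15 to 11.41 on the denervated and 11.68 to 11.83 on the innervated arrays. Arrays were not scaled to the poly-A RNAs, and spike-in below refers to the hybridisation RNAs alone. The 3′ minus 5′ difference of the actin probe sets, a sign of RNA quality, was 0.073 to 0.302 on the denervated and -0.047 to 0.11 on the innervated arrays (log2). For the Gapdh probe sets the same difference was -0.314 to -0.185 on the denervated and -0.292 to -0.26 on the innervated arrays, so the ranges overlapped. The part of RNA quality in the results was not tested.

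Innervated control 2 stood apart from the other innervated arrays in these genes. Relative to the innervated mean of its genotype, the median of the 61 members was -0.409 (log2) on this array, with 58 of 61 below that mean, against 0.237 on innervated control 1 and 0.155 on innervated control 3. The median was -0.628, -0.72 and -0.546 on the denervated control arrays, so innervated control 2 lay between the other innervated controls and the denervated controls. The denervated mutant arrays had medians of -0.621, -0.637 and -0.506, while the innervated mutant arrays, at -0.244 and 0.244, lay apart from each other as well, with 57 of 61 members below their mean on innervated mutant 1. The spike-in average was also highest on innervated control 2, at 14.30 (log2), and its part was not tested. Counts in control muscle are given with and without this array for each complex and pathway list. The share of all genes called without it is not given here, so those counts are a description.

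**Figure D1:**
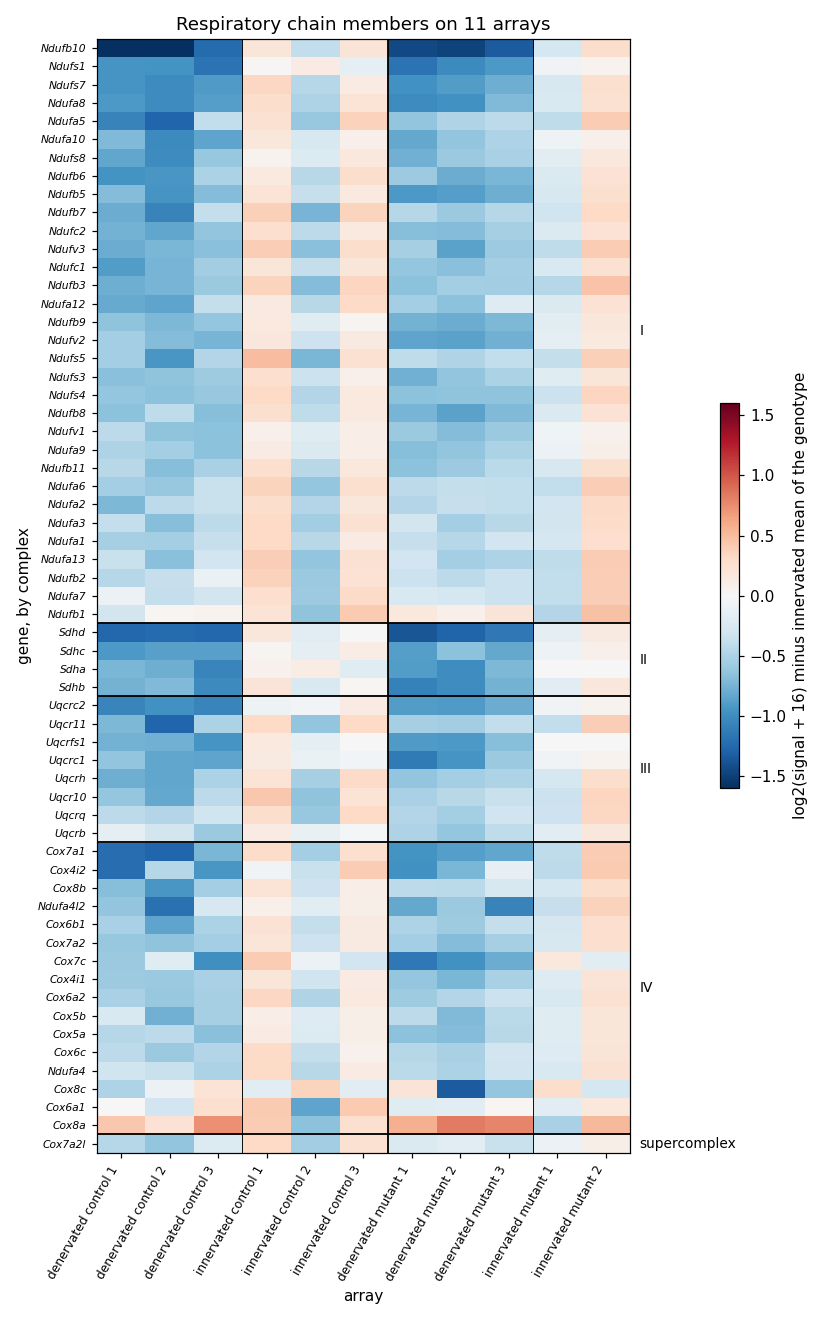
Each row is a member and each column an array, and the colour gives log2(signal + 16) minus the mean of the innervated arrays of the same genotype, with members grouped by complex. The denervated arrays are blue for nearly all members, innervated control 2 is blue for 58 of 61, and Cox8a is the row that is red on all 6 denervated arrays.

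In control muscle most respiratory chain messages were lower after denervation, relative to the bulk of genes on the same array. The members' median turned positive when arrays were scaled to the hybridisation spike-in RNAs instead, and scaling to the poly-A spike-in RNAs was not done. Of the 61 members, 39 fell, 0 rose and 22 did not pass limma's test (adjusted p under 0.05, over 26170 probe sets), while 16.4% of all 12214 genes tested were called lower and 34.5% were called in either direction. The change was below 0 for 60 of 61 members, with a median of -0.65 on the log2(signal + 16) scale, a 1.57-fold lower signal, where the median of all genes was -0.01. For 36 members every denervated control array read lower than every innervated control array, which 22.6% of all genes also did. Without innervated control 2, 54 members fell and the median was -0.81. Without innervated control 1 or innervated control 3, 24 and 25 members fell, and without denervated control 3, the array with the unclear duration, 33 fell. The share of all genes called in these fits is not given here, so a general gain or loss of calls cannot be told apart. Because whole muscle was measured, less message per fibre and a smaller share of fibre RNA in the sample cannot be told apart.

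With spike-in scaling, the median of all probe sets itself moved to 0.81 for denervation in control and 0.38 in mutant, and the members' medians to 0.18 and -0.13. The members' medians still lay below those of all probe sets, but 1 member (Ndufb10) then fell and 2 (Cox6a1 and Cox8a) rose in control muscle, and 3 (Ndufb10, Ndufs1 and Sdhd) fell and 1 (Cox8a) rose in mutant muscle. The direction of an absolute change is not settled by these arrays. Brightness also moved with the result: 52 of the 61 members averaged a signal of 40000 or more, and of the 465 other genes this bright, 40.6% fell in control muscle and 36.8% in mutant muscle, with medians of -0.20 and -0.22. Of those 52 members, 39 fell in control and 30 in mutant. The minimum of 40000 was chosen after the values were seen.

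Complex II, which feeds electrons from succinate into the chain, fell in all 4 of its subunits in control muscle, with a median log2 change of -0.87. Sdhd, the small membrane anchor (chr9:50596340-50603849), had signals of 25094, 25558 and 25247 in denervated control muscle, against 68351, 53188 and 59816 in innervated control muscle. The 3 denervated arrays lay close together and all innervated arrays lay far above them, with no overlap. The change was -1.25 ± 0.13 (log2, SE), a 2.38-fold lower signal, with the smallest p of all members (limma adjusted p = 1.17e-05). In mutant muscle Sdhd had 24574, 26063 and 28728 in denervated arrays, against 57564 and 69735 in innervated arrays, again without overlap, a change of -1.26 ± 0.14 (limma adjusted p = 3.72e-05). Sdhc, the other membrane anchor, changed by -0.89 ± 0.12 in control and -0.79 ± 0.13 in mutant muscle. Sdha, the flavoprotein that holds the succinate site, changed by -0.85 ± 0.13 and -0.87 ± 0.15, and Sdhb, the iron-sulfur subunit, by -0.83 ± 0.15 and -0.95 ± 0.17. All 4 passed in both genotypes without overlap of arrays, and all 4 still fell without innervated control 2, without denervated control 3 and with quantile normalization.

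Complex I fell in 21 of its 32 tested subunits in control muscle (median -0.66), or 31 of 32 without innervated control 2, and in 17 of 32 in mutant muscle (median -0.62). The 6 core subunits that were tested, Ndufs1, Ndufs3, Ndufs7, Ndufs8, Ndufv1 and Ndufv2, which carry the electron path from NADH, fell in both genotypes, with medians of -0.74 in control and -0.73 in mutant muscle. Of the 26 accessory subunits, which surround the core, 15 fell in control (median -0.66) and 11 in mutant (median -0.57). Without innervated control 2, 25 of the 26 accessory subunits fell in control muscle. By name series, 5 of 11 Ndufa, 6 of 10 Ndufb, 2 of 2 Ndufc, 5 of 6 Ndufs and 3 of 3 Ndufv subunits fell in control muscle, with medians of -0.50, -0.68, -0.73, -0.73 and -0.66. No test between these series was made.

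Ndufb10, an accessory subunit of the membrane arm (chr17:24722060-24724423), had the largest fall of all members. Its signals were 25688, 23349.9 and 34101 in denervated control muscle, against 91836, 61071 and 92708 in innervated control muscle, and 29081, 28450.2 and 31439.9 in denervated mutant muscle, against 65169 and 96258 in innervated mutant muscle. The lowest innervated array of either genotype, innervated control 2, still read far above the highest denervated array. The log2 change was -1.55 ± 0.20 in control, a 2.94-fold lower signal (limma adjusted p = 6.34e-05), and -1.42 ± 0.22 in mutant muscle, 2.67-fold lower (limma adjusted p = 0.000439).

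Ndufs1, the largest core subunit, with several iron-sulfur clusters (chr1:63143592-63176822), had 43067, 42853 and 36496 in denervated control muscle, against 83944, 90681 and 75469 in innervated control muscle. Here innervated control 2 was the highest of the innervated arrays and not the lowest, and the groups did not overlap. In mutant muscle the signals were 35889, 40274 and 43276 in denervated arrays, against 78624 and 84822 in innervated arrays. The change was -1.03 ± 0.12 in control and -1.04 ± 0.14 in mutant muscle, 2.04-fold and 2.06-fold lower (limma adjusted p = 4.4e-05 and 0.000139). Ndufa10, an accessory subunit of the membrane arm, changed by -0.86 ± 0.14 in control (limma adjusted p = 0.000606) and -0.65 ± 0.16 in mutant muscle. At the other end, Ndufb1 changed by -0.07 ± 0.27 in control and 0.15 ± 0.31 in mutant muscle, and it passed in neither.

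Complex III fell in 5 of 8 subunits in control muscle (median -0.74), or 7 of 8 without innervated control 2, and in 4 of 8 in mutant muscle (median -0.53). Uqcrc2, a core protein of the matrix side (chr7:120635189-120659523), had 47691, 50899.6 and 47648 in denervated control muscle, against 93728, 96333 and 108888 in innervated control muscle. The groups were well apart and the innervated arrays close together, innervated control 2 included. In mutant muscle it had 52613, 52163 and 56561 in denervated arrays, against 93992 and 102239.8 in innervated arrays. It changed by -1.03 ± 0.11 in control (limma adjusted p = 1.52e-05) and -0.87 ± 0.12 in mutant muscle (limma adjusted p = 0.000208). Uqcrfs1, the Rieske iron-sulfur protein, changed by -0.82 ± 0.12 and -0.84 ± 0.14, and Uqcrc1, the partner core protein, by -0.77 ± 0.14 and -0.89 ± 0.16, and both fell in both genotypes. The smaller subunits Uqcrh and Uqcr11 passed in control and not in mutant muscle, Uqcrb in mutant and not in control muscle, and Uqcr10 and Uqcrq passed in neither.

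**Figure D2:**
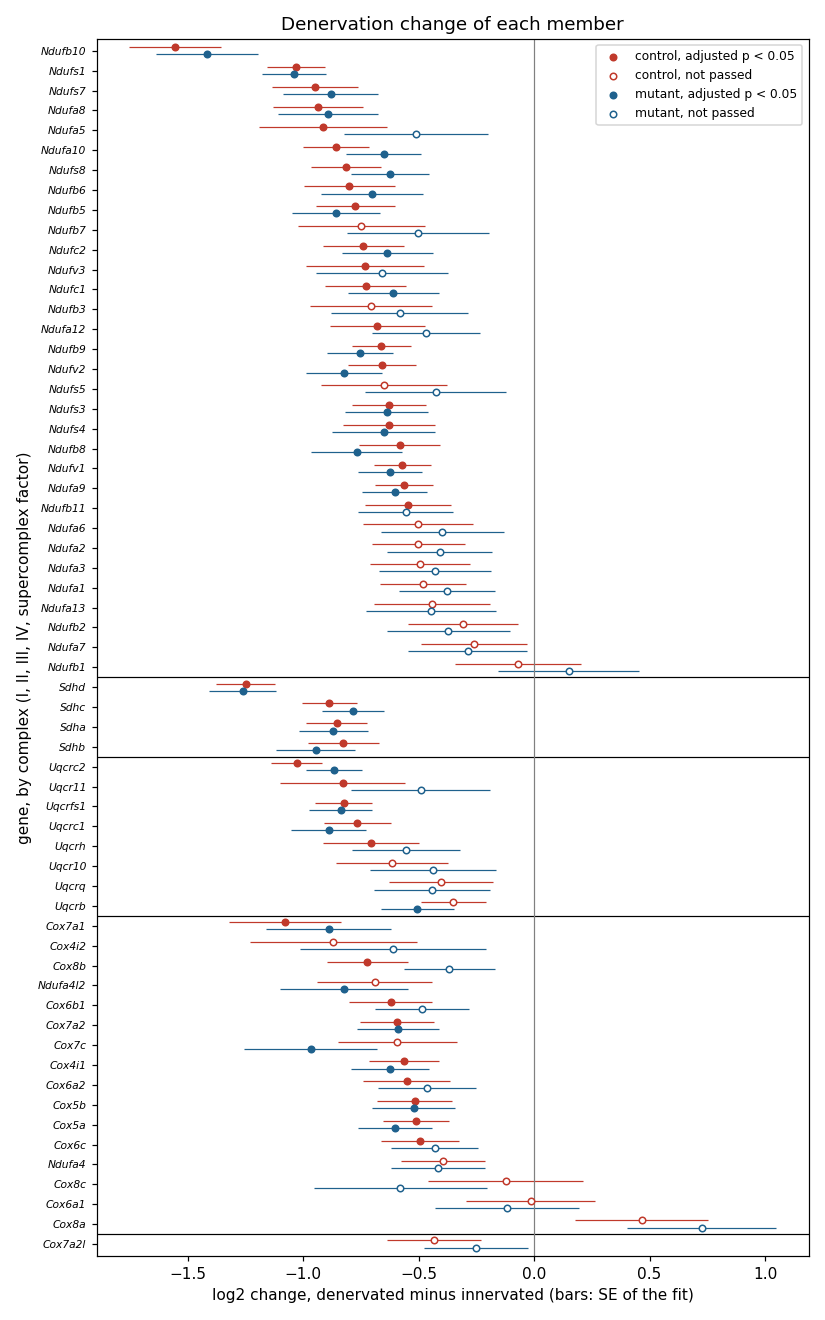
Points give the log2 change of each of the 61 members, denervated minus innervated, in control (red) and mutant (blue) muscle, bars give the standard error of the fit, and filled points passed limma's test. Ndufb10 lies farthest to the left, all 4 Sdh genes are filled in both genotypes, and Cox8a lies right of 0 in both.

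Complex IV fell in 9 of 14 subunits in control muscle (median -0.56) and in 6 of 14 in mutant muscle (median -0.55). Without innervated control 2, 9 of 14 fell in control muscle, with a median of -0.7. With quantile normalization 2 of 14 fell in each genotype, with medians of -0.25 and -0.18, where complex I had 21 and 16 calls, and with spike-in scaling 0 subunits of complexes II, III and IV fell in control muscle. Cox7a1, the form of subunit VIIa made in heart and skeletal muscle, had the largest fall of the complex in control muscle. Its signals were 35979, 34755 and 50456 in denervated control muscle, against 102903, 57716 and 100014 in innervated control muscle, and 48016, 50573 and 52422 in denervated mutant muscle, against 70461 and 123339 in innervated mutant muscle. Denervated control 3 and innervated control 2 came closest to each other, and the groups did not overlap in either genotype. The change was -1.08 ± 0.24 in control (limma adjusted p = 0.00438) and -0.89 ± 0.27 in mutant muscle (limma adjusted p = 0.0279).

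The other subunits of complex IV that passed in control muscle moved by less. Cox4i1, a regulatory subunit made in most tissues, changed by -0.56 ± 0.15 in control and -0.62 ± 0.17 in mutant muscle, Cox5a by -0.51 ± 0.14 and -0.60 ± 0.16, and Cox5b by -0.52 ± 0.16 and -0.52 ± 0.18, and each of these passed in both genotypes. Cox6c changed by -0.49 ± 0.17 in control, the smallest fall that passed there (limma adjusted p = 0.042), and by -0.43 ± 0.19 in mutant muscle, where it did not pass. The control calls of Cox6a2 and Cox6c ended when any denervated control array was left out, and those of Cox5a and Cox5b when denervated control 3 was, and that of Cox5b also without denervated control 2. Cox7c changed by -0.59 ± 0.26 in control, where it did not pass, and -0.97 ± 0.29 in mutant muscle, where it did (limma adjusted p = 0.0248). Its probe set was dim, at 542 to 1489, and the difference between genotypes did not pass.

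The muscle and general forms of 3 complex IV subunits changed by different amounts. For each of 6 pairs of related forms, the log2 difference between the partners was taken within each array, which removes any factor common to the array, and compared between denervated and innervated arrays by an exact two-sided permutation test within genotype. It does not remove an effect that depends on brightness. In innervated control muscle Cox8b and Cox6a2 averaged 132709 and 133636, and their partners Cox8a and Cox6a1 averaged 7054 and 31144. For subunit VIIa the muscle form was the dimmer, with Cox7a1 at 86878 and Cox7a2 at 143566. The part of brightness in these pairs was not tested. The test runs over 200 splits, so its smallest p is 0.005, and p was adjusted over the 6 pairs. With any array left out there are fewer splits and the smallest p is larger, so a call can end for that reason alone. The muscle form lost ground to the general form in all 3 pairs of that kind: Cox8b against Cox8a, Cox6a2 against Cox6a1, and Cox7a1 against Cox7a2. The other 3 pairs did not pass.

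Cox8b, the form of subunit VIII made in heart and skeletal muscle of mice, had 81363, 68432 and 89693 in denervated control muscle, against 152518, 104376 and 141233 in innervated control muscle. Cox8a, the form made in most tissues, had 9075, 7891 and 11145 in denervated control muscle, against 8872, 4246 and 8043 in innervated control muscle. Cox8b was lower on every denervated array than on any innervated array, while the Cox8a arrays overlapped and its lowest value was that of innervated control 2. In mutant muscle Cox8b had 104841, 104134 and 117325 in denervated arrays, against 115501 and 170158 in innervated arrays, and Cox8a had 11236, 13528 and 13102, against 5283 and 10932. There Cox8a read higher on every denervated array than on either innervated array, and Cox8b overlapped. Taken alone, Cox8b changed by -0.72 ± 0.18 in control (limma adjusted p = 0.0072) and -0.37 ± 0.20 in mutant muscle (limma adjusted p = 0.188), and Cox8a by 0.47 ± 0.29 and 0.73 ± 0.32, which did not pass (limma adjusted p = 0.257 and 0.115). Without innervated control 2, whose value does not enter that comparison but does enter the shared estimate of the spread, Cox8a passed in mutant muscle.

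Within arrays the contrast of these forms was clearer. Relative to the innervated mean of the genotype, Cox8b minus Cox8a was -1.12, -1.17 and -1.27 on the denervated control arrays, against -0.18, 0.33 and -0.15 on the innervated control arrays. In mutant muscle it was -0.98, -1.26 and -1.04 on the denervated arrays, against 0.24 and -0.24 on the innervated arrays. No denervated array reached the range of the innervated arrays in either genotype. The mean difference was -1.14 (log2), which is -1.19 in control and -1.09 in mutant muscle (exact permutation p = 0.005, adjusted p = 0.015). It was -1.06 without innervated control 2 and -0.80 with quantile normalization. The call ended when any denervated mutant array was left out, with an adjusted p of 0.05 (exact permutation test). The test then has fewer splits and a larger smallest p, so the lost call does not by itself show a weaker contrast. The difference stayed between -1.26 and -1.02 as single arrays were left out. Both promoters are shown above: the Cox8b promoter holds the E-box letters and no GABPA letters, and the Cox8a promoter the reverse. The promoters of Cox7a1 and Cox7a2 hold none of the searched motifs, and Cox6a2 has no promoter in the RefSeq table. The part of these letters in the contrast of forms was not tested.

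Cox6a2, the heart and muscle form of subunit VIa, had 90944, 85044 and 90058 in denervated control muscle, against 163024, 93116 and 144768 in innervated control muscle, and 97079, 103804 and 113656 in denervated mutant muscle, against 121396 and 171209 in innervated mutant muscle. The gap to innervated control 2 was small in control muscle. It changed by -0.55 ± 0.19 in control (limma adjusted p = 0.0431) and -0.46 ± 0.21 in mutant muscle (limma adjusted p = 0.127). Cox6a1, the general form, had 28979, 23311 and 34681 in denervated control muscle, against 38633, 16144 and 38655 in innervated control muscle, and 28080.0, 28329 and 33054 in denervated mutant muscle, against 28603 and 36342 in innervated mutant muscle. These groups overlapped, with changes of -0.01 ± 0.28 and -0.12 ± 0.31. The difference Cox6a2 minus Cox6a1 changed by -0.44, which is -0.54 in control and -0.35 in mutant muscle, without overlap of arrays in either (exact permutation p = 0.005, adjusted p = 0.015). With quantile normalization it was -0.16 and did not pass (exact permutation test, adjusted p = 0.35). When any denervated mutant array was left out, its adjusted p was 0.05 (exact permutation test), which does not pass either. That test has fewer splits and a larger smallest p, and the difference stayed between -0.51 and -0.35 as single arrays were left out.

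Cox7a2, the general form of subunit VIIa, had 93465, 91118 and 97392 in denervated control muscle, against 161630.4, 112807 and 156261 in innervated control muscle, and 108229, 96799.7 and 109068 in denervated mutant muscle, against 131861 and 187497 in innervated mutant muscle. It fell in both genotypes, with changes of -0.59 ± 0.16 and -0.59 ± 0.18, less than Cox7a1 did on the same arrays. The difference Cox7a1 minus Cox7a2 changed by -0.39, which is -0.49 in control, where denervated control 3 and innervated control 2 overlapped, and -0.30 in mutant muscle (exact permutation p = 0.015, adjusted p = 0.03). The call ended when any of 9 of the 11 arrays was left out, with adjusted p of 0.05 to 0.1 (exact permutation test), and held only without denervated control 3 or innervated control 2.

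The remaining 3 pairs did not pass. Cox7a2l minus Cox7a2 changed by 0.25 (exact permutation p = 0.06, adjusted p = 0.09), and Cox7a2l itself changed by -0.43 ± 0.20 in control and -0.25 ± 0.23 in mutant muscle. Cox4i2, an alternative form of subunit IV known from lung and vascular cells, had 287, 496 and 353 in denervated control muscle, against 663, 532 and 920 in innervated control muscle, and the arrays did not overlap, although it did not pass (-0.87 ± 0.36, limma adjusted p = 0.0898). In mutant muscle it had 296, 353 and 543, against 444 and 802, which overlapped. Cox4i2 minus Cox4i1 changed by -0.15 (exact permutation p = 0.465, adjusted p = 0.465). Ndufa4l2, which can take the place of Ndufa4 under low oxygen, had 1805, 1212 and 2342 in denervated control muscle, against 2944, 2478 and 2991 in innervated control muscle, and 2244, 2633 and 1891 in denervated mutant muscle, against 3074 and 5120.3 in innervated mutant muscle. It changed by -0.69 ± 0.25 in control (limma adjusted p = 0.0515) and -0.82 ± 0.28 in mutant muscle (limma adjusted p = 0.0434), and Ndufa4 by -0.39 ± 0.18 and -0.42 ± 0.20, which did not pass. Ndufa4l2 minus Ndufa4 changed by -0.35 (exact permutation p = 0.13, adjusted p = 0.156), or -0.58 with quantile normalization, where it passed (exact permutation test, adjusted p = 0.03).

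**Figure D3:**
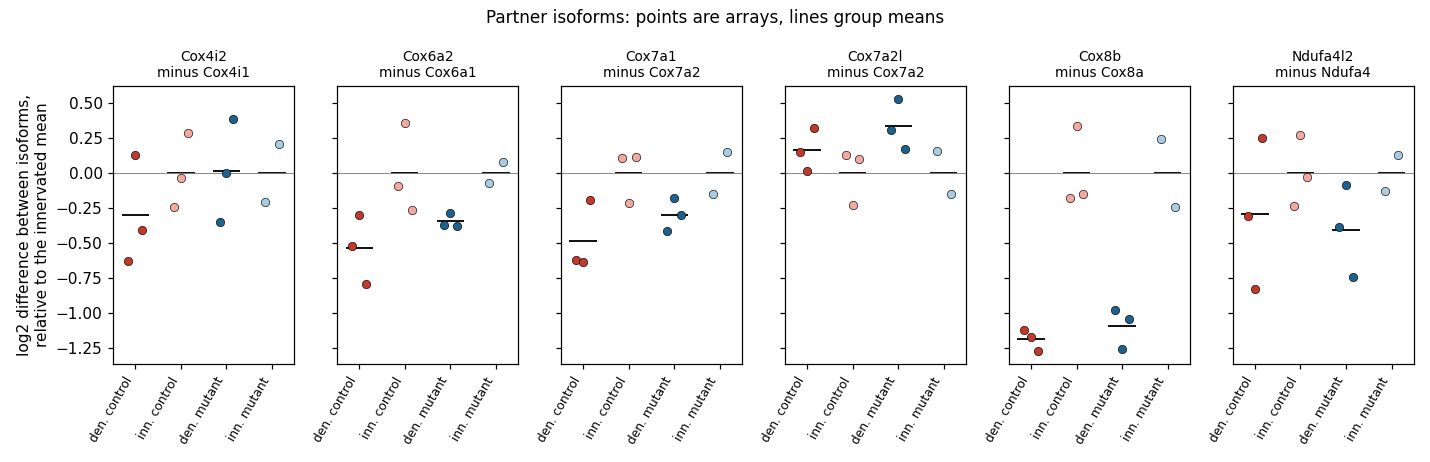
Each panel plots the log2 difference between partner forms on each array, relative to the innervated mean of the genotype, for denervated (dark) and innervated (light) control (red) and mutant (blue) muscle, and lines are group means. Cox8b minus Cox8a lies between -1.27 and -0.98 on all 6 denervated arrays, apart from all 5 innervated arrays, while the denervated and innervated points of Cox4i2 minus Cox4i1 overlap.

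In mutant muscle most members were likewise lower after denervation, and their median was -0.13 with spike-in scaling. Of 61 members, 32 fell, 0 rose and 29 did not pass in mutant muscle, against a background of 13.8% of genes called lower and 30.5% called in either direction, with a median change of -0.60. In 47 members every denervated mutant array read lower than both innervated mutant arrays, against 29.5% of all genes, and in Cox8a every one read higher (31.2% of all genes). This count rests on the 2 innervated mutant arrays: without innervated mutant 2, 12 members fell and Cox8a rose, with a median of -0.33, and without innervated mutant 1, 35 were called. Without denervated mutant 1 or 2, 21 and 20 members fell. For fits with an array left out the share of all genes called is not given here, so their counts are a description. The 9 core subunits of complexes I, II and III that were tested fell in both genotypes, with medians of -0.83 in control and -0.84 in mutant muscle.

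Across both genotypes, 29 members fell in each, 10 passed in control alone, 3 passed in mutant alone and 19 passed in neither. The change was below 0 in both genotypes for 59 members. These comparisons share no array, and the changes correlated across the 61 members with Pearson's r = 0.862, given as a description, since all members of a comparison share the same arrays. Besides Cox4i2, Cox6a1, Cox7a2l, Cox8a and Ndufa4, the members that passed in neither were Cox8c, Ndufa1, Ndufa2, Ndufa3, Ndufa6, Ndufa7, Ndufa13, Ndufb1, Ndufb2, Ndufb3, Ndufb7, Ndufs5, Uqcr10 and Uqcrq. Their log2 changes ran from -0.75 (Ndufb7) to -0.07 (Ndufb1) in control muscle and from -0.58 (Ndufb3) to 0.15 (Ndufb1) in mutant muscle. Ndufb7, an accessory subunit of the membrane arm, had 36438, 29968 and 48201 in denervated control muscle, against 82053, 37608 and 80894 in innervated control muscle, so that innervated control 2 lay within the denervated range and the other 2 innervated arrays far above it. Ndufb7 was lower in each of the 3 same-numbered pairs of control arrays. With it, 9 of the 19 members that passed in neither genotype were lower in all 3 pairs, against 31.3% of all genes. In a fit of the 6 control arrays with the replicate number as a block, 47 of the 61 members fell, and 7 of these 19 were among them: Ndufa1, Ndufa3, Ndufa6, Ndufb3, Ndufb7, Ndufs5 and Uqcr10. The labels do not state this pairing, which was taken from correlations within these same arrays, and the fit was added after the values were seen. The share of all genes called in that fit is not given here, so its counts are a description.

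Between genotypes no member passed. In denervated muscle, mutant against control, 0 of 61 were called by limma, where 2.16% of all genes were, and 1 member, Cox8b, had an unadjusted p under 0.05. Mutant arrays averaged slightly higher, with a change above 0 for 51 of 61 members and a median of 0.15. In 14 members all 3 denervated mutant arrays read higher than all 3 denervated control arrays, against 12.7% of all genes, and in 0 members did all read lower, against 10.4%. Cox8b was among the 14 that read higher, with 104841, 104134 and 117325 in denervated mutant muscle, against 81363, 68432 and 89693 in denervated control muscle, a change of 0.45 ± 0.18 (limma adjusted p = 0.315). The next smallest p were those of Cox8a (0.44 ± 0.29), Uqcr11 (0.41 ± 0.27), Ndufa5 (0.43 ± 0.28) and Ndufa10 (0.22 ± 0.14), with limma adjusted p of 0.646 to 0.648. With spike-in centring the median of the members turned to -0.23, when that of all probe sets moved to -0.39.

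In innervated muscle, mutant against control, 0 of 61 members were called, as were 0% of all genes, and 0 had an unadjusted p under 0.05. The arrays did not overlap in 1 member, Ndufa4l2, which read higher in the mutant, against 7.62% of all genes higher and 8.23% lower. The members' median was 0.10, and it ran from -0.13 to 0.33 as single arrays were left out. The 5 members with the smallest p were Ndufa4l2 (0.50 ± 0.28), Ndufb9 (0.16 ± 0.14), Cox7c (0.28 ± 0.29), Ndufv2 (0.14 ± 0.16) and Cox7a2 (0.15 ± 0.18). The interaction, in which the change of control muscle is taken from that of mutant muscle, called 0 of 61 members, against 0.262% of all genes, and 0 had an unadjusted p under 0.05. Its median was 0.06, and it ran from -0.19 to 0.29 as single arrays were left out. The smallest p were those of Cox8b (0.35 ± 0.26), Uqcrc2 (0.16 ± 0.17), Cox7c (-0.38 ± 0.39), Ndufa5 (0.40 ± 0.42) and Ndufa10 (0.20 ± 0.22). A difference that missed the threshold here does not show that the genotypes were alike.

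Other probe sets of the same genes mostly had the same sign. A further 61 probe sets of 36 members were tested. In control muscle 34 fell, 1 rose and 26 did not pass, and 59 had the sign of the gene's brightest probe set. In mutant muscle 25 fell, 0 rose and 57 had that sign. A dimmer probe set of Ndufs4, an accessory subunit needed to complete complex I, with a mean signal of 6704, changed by -1.65 in control and -1.65 in mutant muscle, where its brightest probe set changed by -0.63 and -0.65. The probe set that rose in control was a dim one of Ndufa12, with a mean signal of 779 (1.27, limma adjusted p = 0.00732), while the other 3 probe sets of that gene fell in control muscle. Probe sets that name a member together with another gene were not used, 9 in all, among them the probe set shared by Ndufs5 and its pseudogene Ndufs5-ps, so signal from such near copies cannot be told apart.

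Genes that work next to complexes I to IV were counted from the same fits. Complex V, the ATP synthase that uses the proton gradient, fell in 12 of 18 genes in control (median -0.61), or 17 without innervated control 2, and 10 of 18 in mutant muscle (median -0.55), with Atp5pb, a stalk subunit, at -0.82 ± 0.10 and -0.89 ± 0.12 and Atp5c1, the rotor subunit gamma, at -0.73 ± 0.12 and -0.69 ± 0.14. Of 12 genes for cytochrome c, cytochrome c1, the acyl carrier Ndufab1 and ubiquinone synthesis, 8 fell and 1 rose in control (median -0.63), or 9 and 0 without innervated control 2, and 6 fell in mutant muscle (median -0.47). Coq9 and Coq5, which act in ubiquinone synthesis, changed by -1.22 ± 0.12 and -1.17 ± 0.12 in control and by -1.19 ± 0.13 and -0.98 ± 0.13 in mutant muscle. The gene that rose was Coq3 (0.41 ± 0.14, limma adjusted p = 0.0465), which did not pass in mutant muscle. Its call in control also ended without denervated control 3, with quantile normalization, with median centring and with the replicate block.

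Assembly factors build the complexes and are not part of them. Of 40 tested, 15 fell and 5 rose in control (median -0.21), and 10 fell and 4 rose in mutant muscle (median -0.15), while 18.1% and 16.7% of all genes were called higher in control and mutant muscle. Coa5, a complex IV factor, changed by -0.93 ± 0.12 in control and -0.75 ± 0.14 in mutant muscle, and Ndufaf6, a complex I factor, by -1.02 ± 0.16 and -0.95 ± 0.18. Cox19, a copper delivery factor of complex IV, had the largest rise, 1.03 ± 0.24 in control and 1.22 ± 0.27 in mutant muscle. The others that rose were Uqcc1, Nubpl, Surf1 and Cox18 in control, of which Cox18 did not pass in mutant muscle. Without innervated control 2, 15 factors fell and 3 rose in control muscle.

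Of 17 regulators of mitochondrial DNA and biogenesis, 6 fell in control (median -0.24) and 7 in mutant muscle (median -0.28), and 0 rose. Of all genes, 16.4% and 13.8% were called lower in control and mutant muscle. Without innervated control 2, 6 regulators fell in control muscle, with a median of -0.34. Perm1, a muscle regulator that acts with PGC-1 and ERR, had signals of 728.0, 603.0 and 398.8 in denervated control muscle, against 25821, 36278 and 30282 in innervated control muscle, by its brightest probe set. In mutant muscle it had 140.6, 216.1 and 138.8 in denervated arrays, against 29572 and 21964 in innervated arrays. Denervated control 3 and all 3 denervated mutant arrays read below the median of their array, so the fold is a bound: with the array median in place of any lower signal, Perm1 was at least 50.9-fold lower in denervated control and at least 53.7-fold lower in denervated mutant muscle. Between genotypes in denervated muscle it was the only regulator called (lower in the mutant, limma adjusted p = 0.00268), and no fold is given because the mutant arrays lie under that floor. Its other tested probe set, with a mean signal of 433, changed by 0.06 ± 0.36 in control and -1.34 ± 0.40 in mutant muscle. Esrra, the oestrogen-related receptor alpha, changed by -1.72 ± 0.17 in control and -1.53 ± 0.19 in mutant muscle by its brightest probe set. A dimmer Esrra probe set, with a mean signal of 966, changed by -0.57 ± 0.26 in control, where it did not pass (limma adjusted p = 0.128). In mutant muscle the dimmer probe set changed by -1.68 ± 0.29 (limma adjusted p = 0.00101). Nrf1, Gabpa and Yy1, the factors whose letters were searched in the promoters, did not pass, with changes of 0.23, -0.20 and 0.27 in control and 0.16, -0.28 and 0.38 in mutant muscle.

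**Figure D4:**
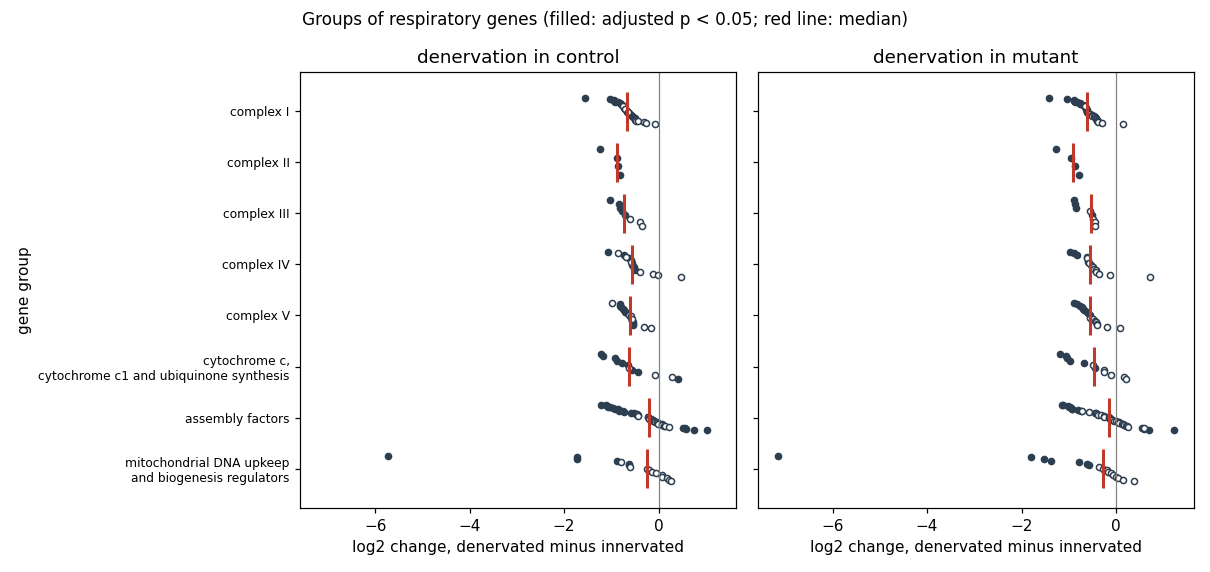
Points are genes, placed by their log2 change, denervated minus innervated, in control (left panel) and mutant (right panel) muscle, filled where limma's adjusted p was under 0.05, with the median of each group as a red line. Complexes I to V lie almost wholly left of 0, assembly factors spread to both sides, and Perm1 is the point farthest to the left in each panel, whose fitted value rests on denervated signals near or under the array median.

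Markers of the tissue and of other cell types moved as well. Of 10 markers of fast muscle fibres, 8 fell in control (median -0.44) and 10 in mutant muscle (median -0.57), and their summed signal was 1408788 to 1991218 in denervated control and 2179758 to 2457245 in innervated control muscle. The tissue label thus stood on high fibre markers in all groups. Of 15 macrophage and leukocyte markers, 9 rose in control and 13 in mutant muscle, with a summed signal of 100432 to 140910.0 in denervated control and 33076 to 45871 in innervated control muscle, and of 122390.0 to 137703 in denervated mutant and 28292 to 32930.0 in innervated mutant muscle. Of 10 endothelial markers 7 fell in control and 4 in mutant muscle. Of 10 pericyte and smooth muscle markers, cells in which Cox4i2 and Ndufa4l2 are also known to be made, 7 fell in control and 6 in mutant muscle, with medians of -0.74 and -0.64. Of 5 satellite cell markers 3 rose in each genotype, of 4 Schwann cell markers 2 fell in each, and of 6 slow-fibre markers 3 rose and 1 fell in control and 1 rose in mutant muscle. Of 6 fibroblast markers 0 passed in control and 1 fell in mutant muscle, and of 2 adipocyte markers tested 1 fell in control and 0 in mutant muscle. The part of these cells in the members' changes was not tested.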

How the data were processed

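RNA of 11 muscle samples was measured on 1-colour arrays, 1 per sample. The authors deposited a linear intensity per probe set, scaled to a 2% trimmed mean of 2500, as the values show. The software and background correction are not given in the sources used here. Values were taken as log2(intensity + 16). Probe sets above the array's median on at least 2 of 11 arrays were kept (26170, without 64 control probe sets), representing 12214 genes by their brightest probe set. The 5 comparisons were fitted with limma 3.58.1 (R 4.3.3), as a mean per group with trended eBayes, and p-values were adjusted by Benjamini-Hochberg over the 26170 probe sets, with a threshold of 0.05. The script was tested on simulated data. Isoform pairs were tested by exact two-sided permutation. The members and lists were chosen with earlier results of these data known. Named were the isoform pairs, the 3 members of smallest p per complex and of largest and smallest called change in control muscle, those passing in neither genotype, the 5 of smallest p per genotype comparison and interaction, and the 2 of smallest p per pathway list. Sdhb, Cox19, Coq3, the probe sets of Ndufs4 and Ndufa12, and the transcription factors of the motifs were named after their values were seen.

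Same-numbered denervated and innervated control arrays deviated together (correlations of 0.303, 0.217 and 0.114), so the numbers were taken to pair them, which the labels do not state. In the other groups the correlations were -0.183 to 0.096. Correlations between arrays with different numbers were not computed, so it is not known whether these are lower. The alternatives were other pseudocounts, filters, normalizations, probe set choices, a replicate block and leaving out each array. Probe sets naming several genes were left out.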

Additional observations from a re-analysis of the deposited data

How the results depend on the processing

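Scaling to the hybridisation spike-in RNAs changed the results most. It left 3 members called for denervation in control, with a median of 0.18, and 4 in mutant muscle, with a median of -0.13, and the medians became -0.23 for genotype in denervated muscle and -0.29 for the interaction. In control muscle 48 of the 61 members then lay above 0, 26 of them in complex I. Of the named members with a call under either scaling, Cox4i1 (0.26), Cox5a (0.32), Cox5b (0.31), Cox6a1 (0.82), Cox6a2 (0.28), Cox6c (0.34), Cox7a2 (0.24), Cox8b (0.11), Uqcrc1 (0.06) and Uqcrfs1 (0.00) turned positive. The cause was not tested. With quantile normalization 32 of 61 members fell in control (median -0.46) and 26 in mutant muscle (median -0.39). Of 26170 probe sets, 3762 and 3095 were then called lower, against 3778 and 3478 without it. Under the same setting Cox6a2 minus Cox6a1 was -0.16, Cox7a2l minus Cox7a2 turned to -0.08 and Ndufa4l2 minus Ndufa4 was -0.58. With the mean of a gene's probe sets Cox7a2l minus Cox7a2 was 0.24 and passed. With the replicate block 36 members were called in control and 28 in mutant muscle, and 47 in a fit of the 6 control arrays alone, added after seeing the data. The share of all genes called is not given here for these fits or for those with an array left out. In the block the pair differences were -0.45 for Cox6a2, -0.41 for Cox7a1 and -1.16 for Cox8b, where the few sign splits keep any from passing.

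Leaving out 1 array at a time gave 24 to 54 members called in control (median -0.81 to -0.53) and 13 to 41 in mutant muscle (median -0.83 to -0.33). Both genotype comparisons and the interaction stayed at 0, with medians of 0.10 to 0.17 in denervated muscle, -0.13 to 0.33 in innervated muscle and -0.19 to 0.29 for the interaction. The pair differences were -0.25 to -0.04 (Cox4i2), -0.51 to -0.35 (Cox6a2), -0.47 to -0.32 (Cox7a1), 0.17 to 0.32 (Cox7a2l), -1.26 to -1.02 (Cox8b) and -0.49 to -0.22 (Ndufa4l2). The calls of the Cox8b and Cox6a2 pairs ended when any denervated mutant array was left out (adjusted p of 0.05, exact permutation test). The test then has fewer splits and a larger smallest p. Results from dim probe sets, such as those used for Cox4i2 and Cox7c, are limited by signal.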
